A study of Solanum lycopersicum with 24 samples.

Results

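Of 34688 tomato loci listed in the deposited table, 40 were nearly silent or clearly present in the hairy roots of both MYB knockouts and the opposite in every other group. Of these, 24 were off, with a group mean under 0.2 CPM (estimated counts divided by the library total and scaled to a common total) in both knockouts and above 1 CPM in each of the other 6 groups. The other 16 were on, with a group mean above 1 CPM in both knockouts and under 0.2 CPM in each of the other 6 groups. The levels that chose the loci are therefore given as a description, without a test. The neighbouring loci were not chosen by these limits and were tested. Tests among the groups on the high side, among the 6 other groups for off loci and between the knockouts for on loci, were also made, with the limit that every such group mean had to exceed 1 CPM.

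Hairy roots are root cultures that grow after infection with Rhizobium rhizogenes, here from the cultivar M82. The groups were slmyb41ko and slmyb92ko, made by CRISPR/Cas9 editing of SlMYB41 and SlMYB92, then slmyb41OX, slmyb92OX and slwrky71OX, which carry the named factor with a 3xFLAG tag behind the constitutive 35S promoter, then slwrky71ko4 and slwrky71ko5, knockout lines 4 and 5 of SlWRKY71, and an empty-vector control. Each group had 3 libraries of poly(A) RNA from root tips. Each library pooled 10 tips of 1 cm, taken at 9 days from roots kept without light at 25 °C, with 3% sucrose in the medium. Per the labels' protocols there were 4 biological replicates per line, and 3 libraries per group were analysed here. All groups share the transformed hairy root state. Only the SlWRKY71 knockout is represented by more than 1 line, so that editing of a factor and the identity of the root line cannot be told apart for the MYB knockouts. The sources used here name no batch or date, and the p-values below measure the spread between the libraries of a group.

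MYB41 and MYB92 are transcription factors of the MYB family that are known in Arabidopsis to switch on genes for suberin, the polyester of fatty acids and phenolics that seals the walls of some root cell layers. In tomato roots this barrier lies in the exodermis, the outermost layer of the cortex. WRKY71 belongs to another family of plant transcription factors. The identifiers of the 40 loci are not paired with product names in the sources used here, so their functions are not given, and root or exodermis marker genes could not be checked. The 3 targeted loci are named from knowledge of the study.

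The libraries held 4852464 to 15372241 estimated counts, and those of the MYB knockouts 5252664 to 15372241. Replicate libraries correlated at 0.909 to 0.975 in log CPM over loci, lowest for the pairs with slwrky71OX library 2, and no pair was a duplicate. Libraries are named by the number in the column name, which runs from 2 to 5 and is not the replicate number of the labels. SlMYB41 (Solyc02g079280) had 0, 0 and 0.247 CPM in slmyb41ko, 12.7, 13.9 and 6.67 CPM in slmyb41OX, and 0, 0.165 and 0 CPM in the control. SlMYB92 (Solyc05g051550) had 0.195, 0 and 0 CPM in slmyb92ko, 48.0, 91.1 and 58.1 CPM in slmyb92OX, and 0, 0 and 0.198 CPM in the control. Both were close to 0 in the control, so their counts do not check the knockouts, and editing need not remove the transcript. SlWRKY71 (Solyc02g071130) averaged 26.6 ± 20.5 CPM in slwrky71OX, 1.99 ± 1.03 CPM in slwrky71ko4, 2.03 ± 2.04 CPM in slwrky71ko5 and 1.66 ± 0.477 CPM in the control (SD, n = 3 each).

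The 40 loci stood apart in every library. In the 6 MYB knockout libraries the off loci together summed to between 0.585 and 1.9 CPM, against 82.9 to 200.0 CPM in the 18 other libraries. The on loci summed to between 129 and 235 CPM in the knockout libraries, against 0 to 0.915 CPM in the others. All 24 off loci had a count in each of the 18 other libraries, and all 16 on loci had a count in each of the 6 knockout libraries. For none of the 40 did a knockout library overlap with a library of another group, beside 1.19% of the 18297 loci tested without such an overlap. Nothing is read from this, since the same values chose the loci. In the contrast of both knockouts with the other 6 groups, 8.86% of the 18297 loci tested were called at a Benjamini-Hochberg adjusted p under 0.05 in edgeR's quasi-likelihood test. That contrast also chose the 40 loci, so their calls in it are not counted. A tissue sample cannot separate fewer cells of a type from less RNA per cell, and an estimated count near 0 is a level below detection at this depth.

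**Figure D1:**
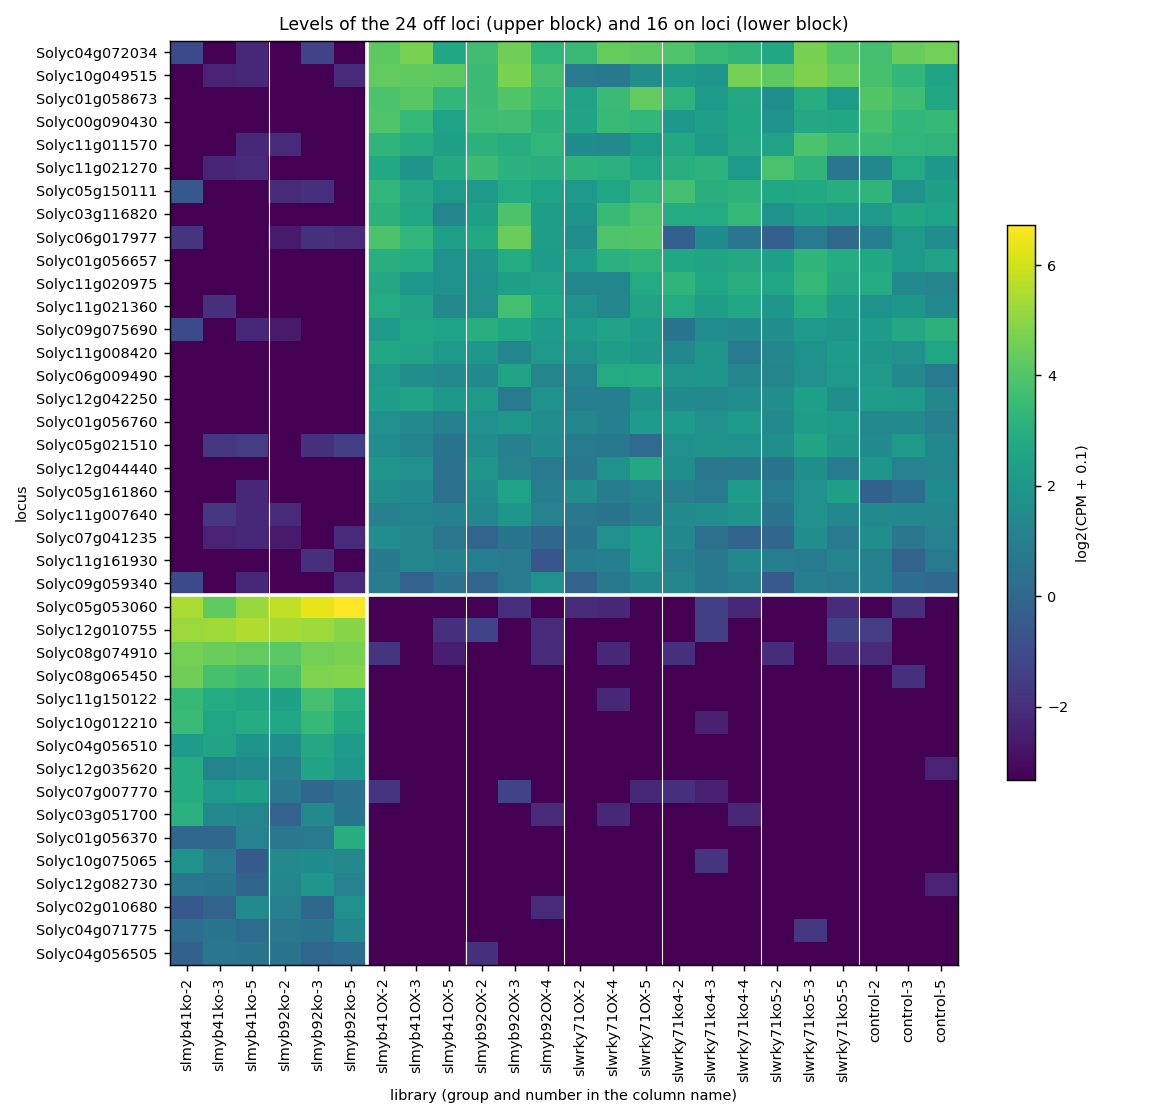
Heat map of log2(CPM + 0.1) for the 24 off loci (upper block) and the 16 on loci (lower block), 1 column per library, grouped by genotype with the control at the right. The first 6 columns are the MYB knockout libraries, in which the upper block is dark and the lower block bright. The 18 other columns show the reverse, with scattered single counts among the on loci.

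The same limits applied to a few other choices of groups found fewer loci. They were met by 6 loci in slmyb41ko alone (5 off and 1 on), by 2 in slmyb92ko alone (1 off and 1 on), by 2 in both SlWRKY71 knockout lines (both off), and by 0 in both MYB overexpression groups. These are counts without a test. Other single groups, such as the control or slwrky71OX, and other pairs of groups were not tried.

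Among the off loci, 10 had no estimated count in any of the 6 knockout libraries. Solyc01g058673 was the clearest of them. It had 14.4, 17.3 and 10.0 CPM in slmyb41OX, 11.8, 15.9 and 10.7 CPM in slmyb92OX, and 5.44, 11.3 and 19.6 CPM in slwrky71OX. It had 9.03, 4.39 and 6.5 CPM in slwrky71ko4 and 3.14, 7.62 and 4.31 CPM in slwrky71ko5. The control libraries had 16.4, 12.2 and 6.15 CPM. All slmyb41OX and slmyb92OX libraries lay above all libraries of both SlWRKY71 knockout lines, while slwrky71OX and the control overlapped with the other groups. In edgeR's F test across the groups other than the MYB knockouts, Solyc01g058673 was not called (F = 3.22, adjusted p = 0.099). With 0 counts in the knockouts and a floor of 3 counts over their 6 libraries, 0.0567 CPM, the locus was at least 177-fold lower there than in the 18 other libraries pooled. These bounds cover counting error only.

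Solyc00g090430, which the identifier places on no chromosome, was also at 0 in all 6 knockout libraries. In the 18 others it lay between 3.44 and 15.4 CPM with a median of 9.23, so it was at least 148-fold lower in the knockouts. Its counts were fractional in 8 libraries, which happens where the counting program divides reads between similar transcripts. Solyc03g116820 lay between 2.29 and 14.9 CPM in the 18 libraries, with a median of 5.85, and was at least 119-fold lower in the knockouts. Counts of Solyc03g116820 were fractional in 18 libraries.

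Solyc01g056657 was the most even of the off loci. Its 18 other libraries ran from 3.37 to 9.48 CPM with a median of 6.37, and its highest group mean was 1.43 times its lowest. The bound for the knockouts was at least 108-fold lower. Near it, Solyc01g056760 averaged 3.23 ± 0.982 CPM over the 18 libraries (SD) and was at least 55.4-fold lower in the knockouts. On chromosome 11, Solyc11g020975 ran from 2.28 to 10.3 CPM with a median of 5.67, and was at least 92.6-fold lower. For the other loci with no count in the knockouts, the bounds were at least 69.2-fold for Solyc11g008420, 62.7-fold for Solyc06g009490, 58.7-fold for Solyc12g042250 and 45-fold for Solyc12g044440.

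The other 14 off loci had a few counts in some knockout libraries, at most 7 summed over the 6. Solyc04g072034 had 0.381, 0 and 0.123 CPM in slmyb41ko and 0, 0.315 and 0 CPM in slmyb92ko. Its 18 other libraries ran from 6.13 to 25.9 CPM with a median of 16.0. Its counts were fractional in 18 libraries. All 18 lay far above the knockout libraries, and its group means among the other 6 groups differed by a factor of 1.61 at most.

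Solyc05g150111 was the off locus nearest to the lower limit, at 0.19 CPM in slmyb41ko. That mean came from 0.571 CPM, 3 counts, in a single library, with 0 in the other two. In the 18 other libraries it ran from 3.46 to 13 CPM with a median of 6.67. Solyc11g021270 had 0, 0.104 and 0.128 CPM in slmyb41ko, 0 in slmyb92ko, and 1.44 to 14 CPM with a median of 7.28 elsewhere. Its near neighbour Solyc11g021360 had 0, 0.162 and 0 CPM in slmyb41ko, 0 in slmyb92ko, and 2.4 to 13 CPM with a median of 4.62 elsewhere. Counts were fractional in 15 libraries for Solyc11g021270 and in 19 for Solyc11g021360. A further 5 off loci, which are Solyc09g075690, Solyc05g021510, Solyc05g161860, Solyc11g161930 and Solyc09g059340, had at most 0.381 CPM in any knockout library and between 0.527 and 8.73 CPM in the others. The last 5 of the 14 are described with the tests and the neighbours.

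The limits asked for more than 1 CPM in each of the 6 other groups, which leaves out any locus that is low in 1 of them. Within that restriction, 3 of the 24 off loci passed the quasi-likelihood F test across those groups at an adjusted p under 0.05. That is 12.5%, beside 20.3% of all 18297 loci tested, which were not restricted in this way, so that nothing is read from these shares. An unadjusted p under 0.05 was reached by 7 off loci, beside 36.0% of all loci tested. The highest group mean was in slwrky71OX for 7 off loci, in slwrky71ko4 for 4, in slmyb92OX for 4, and in slmyb41OX, slwrky71ko5 and the control for 3 each. The highest of the 6 group means was between 1.43 and 10.4 times the lowest, with a median of 2.06 times.

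Solyc06g017977 was high in the overexpression groups and low in the SlWRKY71 knockouts. It had 14.8, 9.52 and 4.94 CPM in slmyb41OX, 6.76, 21.2 and 4.75 CPM in slmyb92OX, and 3.13, 15.4 and 15.7 CPM in slwrky71OX. It had 0.766, 2.84 and 1.42 CPM in slwrky71ko4, 0.748, 1.65 and 1.01 CPM in slwrky71ko5, and 1.89, 4.11 and 2.97 CPM in the control. All libraries of the 3 overexpression groups lay above all libraries of the SlWRKY71 knockouts, and 1 library of slwrky71OX lay within the range of the control. The F statistic was 10.1, with an adjusted p of 0.0018.

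Solyc10g049515 was lowest in slwrky71OX, at 1.63, 1.58 and 3.03 CPM, and highest in slwrky71ko5, at 18.8, 26.2 and 20.1 CPM. It had 19.7, 19.2 and 18 CPM in slmyb41OX, 11.8, 25.8 and 13.3 CPM in slmyb92OX, and 13.9, 9.87 and 5.65 CPM in the control. The slwrky71ko4 libraries were spread, at 4.59, 3.75 and 24.5 CPM, with 1 library inside the range of slwrky71ko5 and the others below it. The F statistic was 8.7, with an adjusted p of 0.0034. In the MYB knockouts this locus had at most 0.126 CPM.

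Solyc11g011570 was also lowest in slwrky71OX, at 2.86, 2.67 and 4.31 CPM, against 11.0, 9.71 and 9.22 CPM in the control. It had 5.38, 14.6 and 11.2 CPM in slwrky71ko5, and 6.58, 4.57 and 6.62 CPM in slwrky71ko4. The slwrky71OX libraries did not overlap with the control or with either knockout line. The F statistic was 5.5, with an adjusted p of 0.018. Without slwrky71OX library 4 the adjusted p was 0.1, above the threshold.

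**Figure D2:**
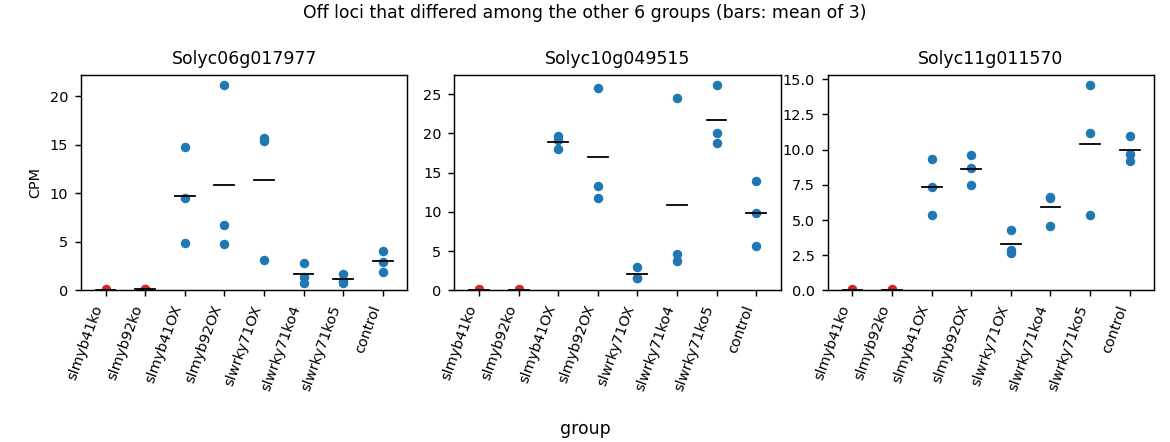
CPM of the 3 off loci that differed among the other 6 groups, with 1 point per library, a bar for the mean of 3 libraries, the MYB knockouts in red and the other groups in blue. Solyc06g017977 is high in the 3 overexpression groups, and Solyc10g049515 and Solyc11g011570 are lowest in slwrky71OX among the blue groups.

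Overexpression of SlMYB41 or SlMYB92 was set against the control for the 24 off loci, and both comparisons share the 3 control libraries. In slmyb41OX, 0 of 24 were called, beside 0.978% of all loci tested, with 2 at an unadjusted p under 0.05 (8.91% of all loci). DESeq2 called 0 of them there and 1.87% of all loci. In slmyb92OX, 0 of 24 were called, beside 3.28% of all loci tested, with 3 at an unadjusted p under 0.05 (16.9% of all loci) and 1 called by DESeq2, which called 5.26% of all loci. The same restriction to loci above 1 CPM in each group holds here. The median log2 difference from the control was 0.25 in slmyb41OX, with 18 of 24 loci above 0, and 0.14 in slmyb92OX, with 15 of 24 above 0. Over all loci tested the median was 0.01 in both. The share of all loci above 0 was not worked out, and the 24 loci are not replicates, so nothing is read from these counts. Solyc06g017977 had the highest difference in each, at 1.76 ± 0.58 (SE, edgeR adjusted p = 0.22) in slmyb41OX and 1.92 ± 0.58 (SE, edgeR adjusted p = 0.076) in slmyb92OX. Solyc11g021360 was next among those with an unadjusted p under 0.05 in slmyb92OX, at 1.27 ± 0.48 (SE, edgeR adjusted p = 0.17).

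Among the on loci, Solyc05g053060 had 53.3, 81.4 and 105 CPM in slmyb92ko and 43.6, 19.1 and 35.5 CPM in slmyb41ko. No other library exceeded 0.274 CPM, and 11 of the 18 were at 0. All slmyb92ko libraries lay above all slmyb41ko libraries. The log2 difference between slmyb92ko and slmyb41ko was 1.18 ± 0.34 (SE), with an edgeR adjusted p of 0.18, which did not pass the threshold.

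Solyc12g010755 had 40.7, 37.9 and 30.8 CPM in slmyb92ko and 37.1, 38.8 and 45.9 CPM in slmyb41ko, with means of 36.5 ± 5.11 CPM in slmyb92ko and 40.6 ± 4.66 CPM in slmyb41ko (SD, n = 3 each). Elsewhere it stayed at or below 0.305 CPM, with 12 of 18 libraries at 0. Solyc08g074910 had 17.7, 23.5 and 26.0 CPM in slmyb92ko and 24.6, 21.8 and 19.9 CPM in slmyb41ko, and at most 0.195 CPM elsewhere. Its group means in the knockouts were 22.4 ± 4.24 CPM in slmyb92ko and 22.1 ± 2.35 CPM in slmyb41ko (SD, n = 3 each). For both loci the knockout means differed by less than the SD of their libraries.

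Solyc08g065450 had 13.6, 27.5 and 29.0 CPM in slmyb92ko and 23.0, 13.7 and 11.6 CPM in slmyb41ko. The others showed 0 in 17 of 18 libraries, with 1 count in all. Solyc11g150122 had 5.2, 13.4 and 8.2 CPM in slmyb92ko and 10.5, 7.2 and 6.3 CPM in slmyb41ko, again with 1 count elsewhere. Solyc10g012210, with 6.38, 10.4 and 6.81 CPM in slmyb92ko and 11.4, 5.88 and 7.41 CPM in slmyb41ko, had 1 count elsewhere as well. The knockouts overlapped for each of these loci.

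Solyc04g056510 and Solyc01g056370 had no count in any of the 18 other libraries. Solyc04g056510 had 3.06, 6.61 and 4.41 CPM in slmyb92ko and 4.57, 5.78 and 3.58 CPM in slmyb41ko. Against a floor of 3 counts over 18 libraries, 0.0221 CPM, it was at least 200-fold higher in the knockouts pooled. Solyc01g056370 had 1.5, 1.73 and 7.44 CPM in slmyb92ko and 0.952, 0.943 and 2.1 CPM in slmyb41ko, and was at least 106-fold higher in the knockouts pooled. Its mean in slmyb92ko rests largely on library 5.

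Solyc07g007770 had the widest ratio between the knockout means, with 1.5, 0.944 and 1.26 CPM in slmyb92ko and 7.23, 4.26 and 5.18 CPM in slmyb41ko. The libraries did not overlap, and the log2 difference was -2.21 ± 0.63 (SE), with an edgeR adjusted p of 0.18. Solyc03g051700 had 0.781, 2.68 and 1.39 CPM in slmyb92ko and 8.38, 2.54 and 2.35 CPM in slmyb41ko, a log2 difference of -1.56 ± 0.69 (SE, edgeR adjusted p = 0.39). Library 2 was far above the other slmyb41ko libraries, which lay within the range of slmyb92ko. Solyc12g035620 had 1.95, 5.67 and 4.03 CPM in slmyb92ko and 7.42, 2.23 and 2.59 CPM in slmyb41ko, and Solyc10g075065 had 2.54, 2.83 and 2.52 CPM in slmyb92ko and 3.38, 1.69 and 0.617 CPM in slmyb41ko. Both overlapped between the knockouts. Solyc12g082730 had 2.37, 3.69 and 2.11 CPM in slmyb92ko and 1.45, 1.38 and 0.843 CPM in slmyb41ko, without overlap, and its log2 difference of 0.98 ± 0.59 (SE, edgeR adjusted p = 0.54) did not pass the threshold. The other 3 on loci, Solyc02g010680, Solyc04g071775 and Solyc04g056505, lay between 0.571 and 3.15 CPM in the knockout libraries. Counts were fractional in 6 libraries for Solyc04g071775 and in 6 for Solyc12g082730.

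Between slmyb92ko and slmyb41ko, 0 of the 16 on loci were called, beside 0.355% of all loci tested. An unadjusted p under 0.05 was reached by 3, beside 12.2% of all loci. DESeq2 called 0 of them and 0.886% of all loci. Both knockout means of these loci had to exceed 1 CPM, and they had counts enough for testing only in the 2 groups compared. At so small a share, 0 calls among 16 loci are uninformative, so that nothing is read from these shares. The log2 differences ran between -2.21 and 1.26 with a median of -0.02, and 8 of the 16 were above 0. The mean was higher in slmyb92ko for 10 on loci and higher in slmyb41ko for 6. A p above the threshold does not show that the levels were equal.

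**Figure D3:**
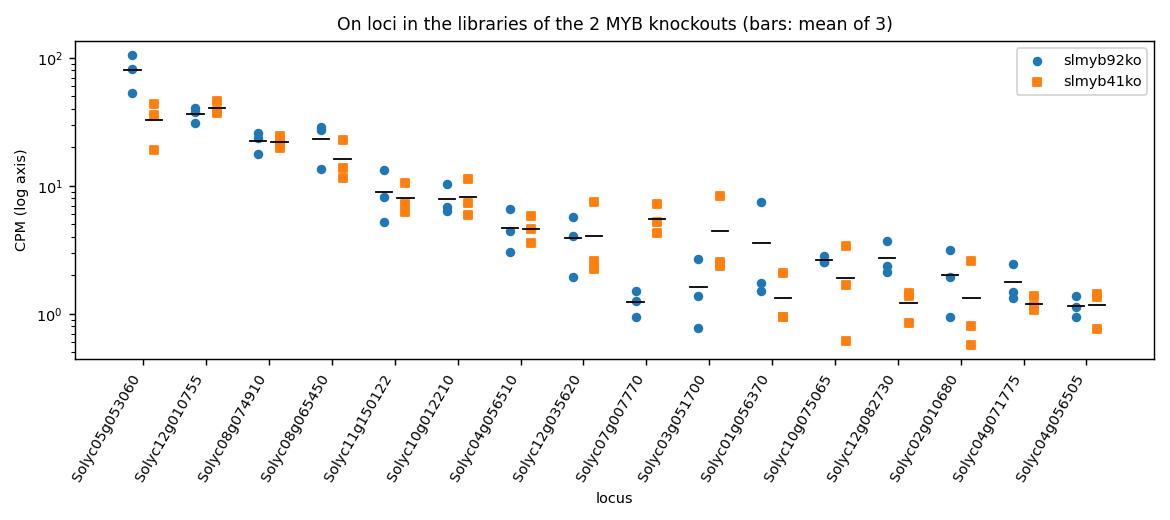
CPM (log axis) of the 16 on loci in the libraries of slmyb92ko (circles) and slmyb41ko (squares), with a bar for the mean of 3 libraries. The ranges overlap for 13 loci. They stand apart for Solyc05g053060 and Solyc12g082730, with the slmyb92ko libraries above, and for Solyc07g007770, with the slmyb41ko libraries above.

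Close to the limits, the set shades into loci with much the same pattern. Just inside the off limits were Solyc05g150111, Solyc07g041235, with 1.06 CPM in slmyb92OX, and Solyc06g017977, with 1.13 CPM in slwrky71ko5. Just outside were Solyc02g090810, with 0.212 CPM in slmyb92ko and 0.961 CPM in slmyb92OX, Solyc12g035180, with 0.89 CPM in slmyb92OX, and Solyc08g016800, with 0.225 CPM in slmyb41ko. Just inside the on limits were Solyc04g056505, with 1.15 CPM in slmyb92ko, Solyc04g071775, with 1.2 CPM in slmyb41ko, and Solyc12g082730, with 1.23 CPM in slmyb41ko. Just outside were Solyc02g150127, with 0.201 CPM in slwrky71OX, Solyc12g082720, with 0.994 CPM in slmyb41ko, and Solyc03g051690, with 0.207 CPM in slwrky71OX and 0.878 CPM in slmyb92ko. Of the 3 on loci just outside, Solyc12g082720 and Solyc03g051690 each stand directly beside a member.

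Chromosome and order were read from the identifiers, in which the digits after Solyc give the chromosome. A last number under 150000 gives the place along it. Numbers of 150000 or more, held by 4 members, are a separate series that was ordered among itself. The place of that series among the other loci is not known here, so counts of loci between members stay within 1 series. The genome build and base coordinates are not given in the sources used here. The 39 loci with a chromosome were spread over all 12. Chromosome 11 had the most, with 7 off and 1 on among 2438 loci listed. Chromosomes 1, 4, 5 and 12 had 3 off and 1 on, 1 off and 3 on, 3 off and 1 on, and 2 off and 3 on. These 4 chromosomes had 4160, 2893, 2470 and 2560 loci listed. Chromosomes 2 and 8 had only on loci, 1 and 2 of them, and chromosomes 6 and 9 had only off loci, 2 each. No test of this distribution was made. The shares that follow concern other loci and do not measure how members were spread. Among tested loci other than the members, the share called in both knockouts against the other 6 groups ran from 6.74% on chromosome 10 to 12.9% on chromosome 5, and was 8.65% on chromosome 11.

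Some members stood near each other. The on loci Solyc04g056505 and Solyc04g056510 were adjacent. Solyc04g056505 had 0.944 to 1.37 CPM in slmyb92ko and 0.762 to 1.42 CPM in slmyb41ko. The off loci Solyc11g021270 and Solyc11g021360 had 4 listed loci between them. Solyc01g056657 and Solyc01g056760, both off, had 5 between them. On and off loci also lay near each other, since the on locus Solyc01g056370 was 20 listed loci before the off locus Solyc01g056657, and the on locus Solyc04g071775 was 25 before the off locus Solyc04g072034. In all, 4 members had another member among the 5 listed loci to either side, and 10 had one within 50. The counts that an even scatter would give were not worked out, so whether members are grouped was not tested. The widest gap between successive members was 1575 listed loci, on chromosome 3.

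The numbers in the identifiers were set beside those of other loci. Most tomato identifiers are numbered in steps of 10, which leaves room for added loci. Of the 40 members, 13 (32.5%) had a number that was not a multiple of 10, 8 of the 24 off loci and 5 of the 16 on loci. The share was 10.4% of all loci listed and 4.72% of the 19019 loci with a mean above 1 CPM in at least 1 group. A number of 150000 or more, from a separate series of identifiers, was held by 4 members (10.0%), beside 10.6% of all loci and 1.69% of the 19019. Estimated counts that were not whole in at least 1 library occurred in 14 members (35.0%), against 14.2% of all loci listed and 17.1% of the 19019. These shares were not tested, and the part of read sharing between similar transcripts in the levels was not tested.

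The neighbours were not chosen by the limits, so their levels were tested. Taking the 5 listed loci to each side gave 369 neighbours, of which 139 had enough counts to be tested. In both MYB knockouts against the other 6 groups, 30 of the 139 were called, 21.6%, beside 8.86% of all loci tested. A difference past 2 on the log2 scale was called for 12 of them, 8.63%, beside 1.82% of all loci tested. Of the 84 tested neighbours of off loci, 14 were lower in the knockouts (16.7%, beside 5.14% of all loci) and 4 were higher (beside 3.72% of all loci). Of the 55 tested neighbours of on loci, 9 were higher (16.4%, beside 3.72% of all loci) and 3 were lower (beside 5.14% of all loci). No test of these shares against each other was made, and neighbours of 1 member share a place.

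Most neighbours were not called. The median size of the log2 difference was 0.23 over the 139, beside 0.18 over all loci tested. A called neighbour in its own direction was found for 8 of the 24 off loci and for 7 of the 16 on loci. The adjacent on loci Solyc04g056505 and Solyc04g056510 share neighbours and are counted separately. Solyc10g049515 is counted through Solyc10g049560 alone, which was low in slmyb41ko only. Solyc11g011570 is counted through Solyc11g011610 alone, with means of 33.0 CPM in slmyb41ko and 32.1 CPM in slmyb92ko. That neighbour had 25.5 CPM in the control and 37.1 CPM in slwrky71OX. Solyc07g007770 is counted through Solyc07g007790 alone, with 30.1 CPM in slmyb41ko and 31.8 CPM in slmyb92ko. It had 27.5 CPM in the control and 31.0 CPM in slwrky71OX. Both neighbours are named after their values were seen. For 11 off loci and 7 on loci there were tested neighbours and none was called. No such share was worked out for all loci, so nothing is read from these counts of members. The share called was 29.6% with 1 locus to each side (8 of 27) and 27.5% with 2 (14 of 51), and it was 15.2% with 10 (42 of 277), 12% with 25 (88 of 735) and 10.8% with 50 (156 of 1441). It was thus highest beside the members and closer to the 8.86% of all loci in wider windows. The windows of 25 and 50 were chosen after seeing the data, and the windows contain each other. Without Solyc04g072034 and its neighbours, a choice also made after seeing the data, 23 of 129 were called, 17.8%.

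**Figure D4:**
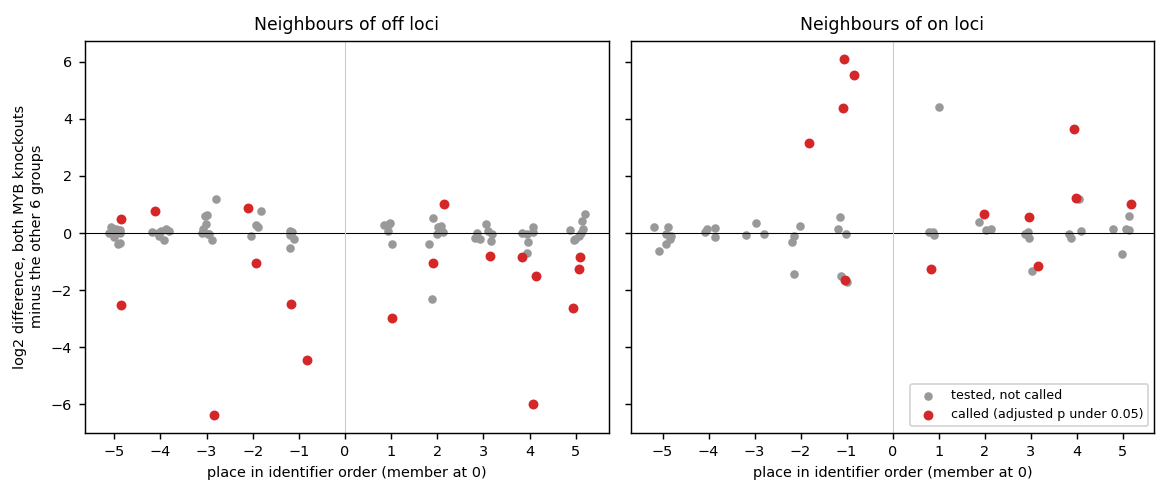
Log2 difference of both MYB knockouts minus the other 6 groups for each tested neighbour of the off loci (left) and on loci (right), by place in identifier order with the member at 0. Points are shifted sideways slightly so that they do not cover each other, and red points were called at an adjusted p under 0.05. Most points lie near 0, and the red points far from 0 lie mostly below it on the left and above it on the right.

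The neighbour with the strongest call was Solyc07g041280, 4 places after the off locus Solyc07g041235. It had 0.19, 0.406 and 0 CPM in slmyb41ko and 0.39, 0.472 and 0.252 CPM in slmyb92ko, against 10.6 to 23.7 CPM with a median of 19.1 in the 18 other libraries. The groups did not overlap. The log2 difference was -5.99 ± 0.27 (SE, edgeR adjusted p = 1.9e-13). It missed the off limits only through the low side, with a mean of 0.372 CPM in slmyb92ko. The member itself, Solyc07g041235, lay at the other limit, with 0.827 to 4.31 CPM in the 18 libraries.

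On chromosome 8, 3 of the 4 tested neighbours of the on locus Solyc08g074910 were higher in the knockouts. Solyc08g074890 had 37.7, 20.8 and 23.5 CPM in slmyb41ko and 16.7, 34.2 and 30.1 CPM in slmyb92ko, against 0.793 to 5.48 CPM elsewhere, a log2 difference of 3.17 ± 0.20 (SE, edgeR adjusted p = 8e-11). Solyc08g074895, directly before the member, had 5.9, 4.06 and 4.69 CPM in slmyb41ko and 5.66, 13.5 and 13.4 CPM in slmyb92ko, against 0 to 1.4 CPM elsewhere. Its log2 difference was 5.52 ± 0.40 (SE, edgeR adjusted p = 3.4e-09). Neither overlapped between the knockouts and the other groups. The other, Solyc08g074960, chosen here after its values were seen, had a log2 difference of 1.22 (edgeR adjusted p = 0.019), with overlapping libraries, and without slmyb41ko library 2 the adjusted p was 0.093.

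On chromosome 11, both adjacent loci of the off locus Solyc11g007640 were lower in the knockouts. The member had 1.34 to 3.83 CPM in the 18 other libraries. Solyc11g007620 had a median of 0 and at most 0.157 CPM in the 6 knockout libraries, against 0.477 to 2.33 CPM elsewhere, a log2 difference of -4.44 ± 0.58 (SE, edgeR adjusted p = 1.3e-05), with no overlap. Solyc11g007650, named after its values were seen, had at most 0.71 CPM in the knockout libraries, against 0.512 to 5.43 CPM elsewhere, a log2 difference of -2.96 ± 0.48 (SE, edgeR adjusted p = 1.8e-04). Its libraries overlapped at the edge. Farther out the levels did not follow the member.

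**Figure D5:**
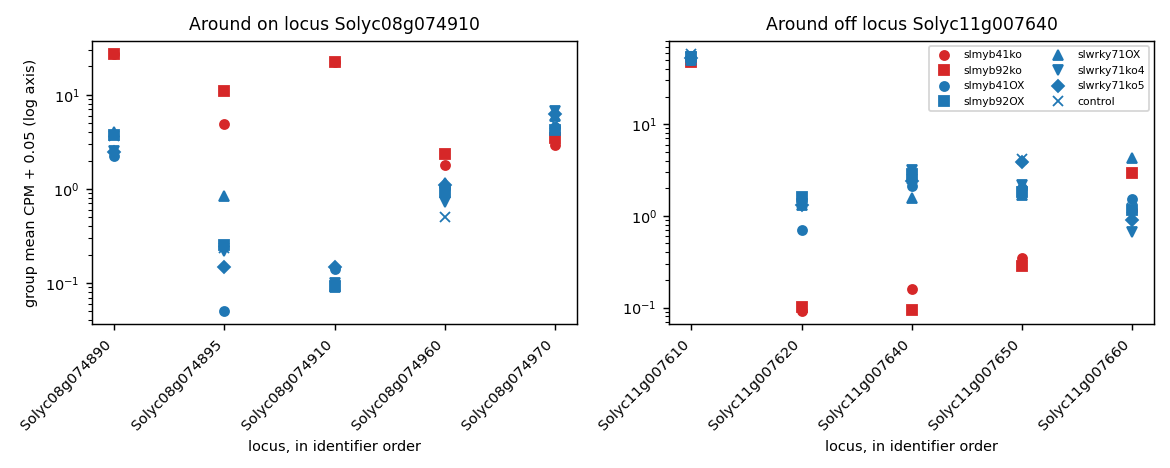
Group mean CPM plus 0.05 (log axis) of the tested loci around the on locus Solyc08g074910 (left) and the off locus Solyc11g007640 (right), in identifier order, with the MYB knockouts in red and the other groups in blue. These places were chosen after their values were seen. Red symbols lie above the blue at 4 of the 5 loci on the left, and below the blue at the 3 loci in the middle on the right.

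Around the off locus Solyc04g072034 all 10 neighbours were tested and 7 were called, 6 of them lower in the knockouts. Over all loci tested 8.86% were called and 5.14% were lower. The called neighbour that was higher, Solyc04g072020, is named after its values were seen. Its log2 difference was 0.50 ± 0.15 (SE, edgeR adjusted p = 0.035), and it lost its call in 9 of 28 alternative settings. Solyc04g072033, directly before it, had 0.571, 0.101 and 0.123 CPM in slmyb41ko and 1.04, 0.63 and 0.63 CPM in slmyb92ko, against 0.732 to 7.88 CPM elsewhere, a log2 difference of -2.47 ± 0.35 (SE, edgeR adjusted p = 3e-05). Solyc04g072032 had 127 to 190 CPM in the knockout libraries, against 238 to 452 CPM elsewhere, a log2 difference of -1.06 ± 0.12 (SE, edgeR adjusted p = 1.5e-06), with no overlap. Solyc04g072036 and Solyc04g072039 were lower by about the same factor, at -1.05 ± 0.14 and -0.85 ± 0.12 (SE, edgeR adjusted p = 1.4e-05 and 2.6e-05), with some overlap between libraries. At this place the 6 neighbours called lower were thus reduced in part, while the member was nearly at 0.

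Called neighbours with small p also stood near other members. Solyc10g012240, 4 places after the on locus Solyc10g012210, had 30.8, 26.6 and 30.2 CPM in slmyb41ko and 32.1, 42.0 and 27.4 CPM in slmyb92ko, a log2 difference of 3.65 ± 0.27 (SE, edgeR adjusted p = 1.3e-09). Unlike the member, it was also present in slmyb41OX, at 17.9, 18.3 and 22.5 CPM, and had 0.126, 0.658 and 0.198 CPM in the control. Solyc12g042300, 4 places after the off locus Solyc12g042250, had 3.45 to 7.42 CPM in the knockout libraries, against 12.5 to 20.2 CPM elsewhere, a log2 difference of -1.51 ± 0.14 (SE, edgeR adjusted p = 6.8e-08). Neither overlapped between the knockouts and the other groups.

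Solyc12g082720, directly before the on locus Solyc12g082730, had 0.19, 1.93 and 0.864 CPM in slmyb41ko and 1.37, 2.68 and 1.51 CPM in slmyb92ko, against at most 0.173 CPM elsewhere. Its log2 difference was 6.11 ± 0.67 (SE, edgeR adjusted p = 6.9e-05). With a median of 0 CPM in the other libraries, this fitted value and its SE depend on the prior count. Solyc03g051690, directly before the on locus Solyc03g051700, had 6.47, 1.52 and 2.35 CPM in slmyb41ko and 0.651, 1.73 and 0.252 CPM in slmyb92ko, against at most 0.486 CPM elsewhere. Its log2 difference was 4.37 ± 0.58 (SE, edgeR adjusted p = 2.3e-05). The same limit holds for Solyc03g051690, also at a median of 0 CPM in the other libraries. Like its neighbour Solyc03g051700, it had its highest value in slmyb41ko library 2. Beside these, Solyc06g009450, named after its values were seen, was at 0 in all 6 knockout libraries, against 0.0992 to 3.49 CPM elsewhere, and so at least 24.3-fold lower in the knockouts. It lies 3 places before the off locus Solyc06g009490, which was also at 0 there. The other called neighbour of that member, Solyc06g009510, was higher in the knockouts, at 24.8 to 86.8 CPM, against 8.82 to 55.7 CPM elsewhere, a log2 difference of 1.01 ± 0.28 (SE, edgeR adjusted p = 0.025) that lost its call in 5 of 28 alternative settings. Near the adjacent on loci of chromosome 4, Solyc04g056530 and Solyc04g056540 were both higher in the knockouts, with log2 differences of 0.57 ± 0.13 and 1.03 ± 0.16 (SE, edgeR adjusted p = 0.0062 and 1.2e-04), and both overlapped between the groups. These 3 were also named after their values were seen.

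Neighbours could also move against their member. The on locus Solyc05g053060 had called neighbours on both sides, and both were lower in the knockouts. Solyc05g053080, named after its values were seen, had 485 to 1130 CPM in the knockout libraries, against 872 to 2610 CPM elsewhere, a log2 difference of -1.27 (edgeR adjusted p = 1.8e-04). In all, 7 of the 30 called neighbours moved against their member and 23 with it, by the mean of both knockouts. The 7 were 4 of the 84 tested neighbours of off loci, higher, and 3 of the 55 of on loci, lower. Over all loci tested 3.72% were higher and 5.14% lower, so nothing is read from the 7. Among the 23, Solyc11g011610 and Solyc07g007790 had knockout means near those of the control and slwrky71OX. Solyc10g049560 is among the 23 through slmyb41ko alone. Its log2 difference for both knockouts was -2.62 ± 0.57 (SE, edgeR adjusted p = 0.0041), with a mean of 3.85 CPM in slmyb92ko, against 3.98 CPM in the other 6 groups.

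Between slmyb92ko and slmyb41ko, 2 of the 139 tested neighbours were called, 1.44%, beside 0.355% of all loci tested. Solyc10g049560, 5 places after the off locus Solyc10g049515, had 1.69, 7.71 and 2.14 CPM in slmyb92ko and 0.19, 0 and 0.123 CPM in slmyb41ko, a log2 difference of 5.04 ± 1.04 (SE, edgeR adjusted p = 0.03). The other groups had 0.892 to 10.4 CPM, so that it was low in slmyb41ko and within the range of the other groups in slmyb92ko. Solyc11g150123, next in number to the on locus Solyc11g150122, had no count in slmyb92ko and 9.2, 7.2 and 4.57 CPM in slmyb41ko, and no count in any other group. It was at least 66.6-fold lower in slmyb92ko than in slmyb41ko, against a floor of 3 counts over 3 libraries (edgeR adjusted p = 0.017). Both calls depend on the libraries used. Without any 1 of the slmyb41ko libraries, 0 of the 144 neighbours then tested were called, beside 0.133% to 0.302% of all loci. Without slmyb92ko library 2 or library 5, 1 was called, beside 0.18% and 0.176% of all loci.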

How the data were processed

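The authors deposited estimated counts per transcript, 1 per locus, for 24 libraries, made from paired reads of 75 bp. Per the submitters' processing notes the tools included kallisto 0.46.2 and Trim Galore 0.6.6, and the annotation was not given in the sources used here. Libraries were not strand-specific, per the labels' protocols, so the reads of a gene and an overlapping antisense gene cannot be told apart, and kallisto shares reads between similar copies by estimation. Transgene reads are counted with those of the native gene. Of the deposited values, 6.18% were not whole at a tolerance of 1e-09.

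CPM were computed from column totals and are not per transcript length, so they compare groups, not loci. Columns were assigned to groups by name. For the tests, estimated counts were rounded, filtered with filterByExpr (18297 loci left) and scaled by TMM, with factors of 0.909 to 1.12. All 24 libraries entered 1 edgeR 4.0.16 quasi-likelihood fit (limma 3.58.1, R 4.3.3), with a common dispersion of 0.0789, and 5 comparisons were tested, each with Benjamini-Hochberg adjustment over all loci tested. A standard error was taken as the absolute log2 difference over the root of F, which is rough where a group has few or no counts. All 40 members passed the filter. DESeq2 1.42.0, other limits, scalings, windows and left-out libraries were tried as alternatives. The fit was tested on simulated data. Of the identifiers, 0 matched the RefSeq table, and no sequence is shown.

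The loci named with values are the 12 off loci with the highest mean over the 18 other libraries, the 12 on loci with the highest mean over the 6 knockout libraries, members near each other or near a limit, members called in a test, the 12 called neighbours with the smallest p, and the 3 targets. The off loci with no count in the knockouts are also named, and others are marked where named. Members, lists and the rule were chosen with earlier results of these data known. Chromosome 0 stands for loci placed on no chromosome, which have no neighbours here, and identifiers from 150000 were ordered among themselves.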

Additional observations from a re-analysis of the deposited data

Results flagged for a closer look

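Solyc10g049560, a neighbour of the off locus Solyc10g049515, stood out because its level relative to the other groups was not the same in the 2 MYB knockouts: slmyb92ko minus slmyb41ko was 5.04 on the log2 scale by edgeR (adjusted p = 0.03), with all 3 slmyb92ko libraries above all 3 slmyb41ko libraries.

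Solyc11g150123, a neighbour of the on locus Solyc11g150122, stood out for the same reason. The fitted log2 difference was -8.81 (edgeR adjusted p = 0.017), a value that depends on the prior count because slmyb92ko had no count, while all 3 slmyb41ko libraries had counts.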

How the results depend on the processing

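The number of off loci was 24 and that of on loci 16. Limits of 0.1 and 2 CPM, and limits applied to every single library, each left 14 off and 6 on. Limits of 0.5 and 1 CPM gave 37 off and 23 on, and limits of 0.2 and 0.5 CPM gave 41 off and 24 on, with all 40 kept. TMM or DESeq2 scaling gave 24 off and 18 on, with all 40 kept. Leaving out 1 library in turn gave 21 to 26 off and 15 to 18 on. Off loci called among the other 6 groups numbered 3 (20.3% of all loci called), 6 with DESeq2 (31.1% of all loci), 5 with the groups compared alone (19.9%), and 2 to 4 with a library left out (10.1% to 31.5%). Off loci called in slmyb92OX against the control numbered 0, 1 with DESeq2 (5.26% of all loci), and 1 without the filter on low counts (2.39%). With a library left out they numbered 0 to 1 (1.39% to 4.0% of all loci), the 1 without slwrky71OX library 2 (4.0%). Off loci called in slmyb41OX were 0 to 0 with a library left out (0.499% to 1.08% of all loci). On loci called between the knockouts were also 0 to 0 (0.133% to 0.508% of all loci). Called neighbours in both knockouts numbered 30 (8.86% of all loci called). With 1, 2, 25 and 50 loci to each side they numbered 8, 14, 88 and 156. With a library left out they numbered 26 to 32 (6.17% to 9.03% of all loci). Called neighbours between the knockouts numbered 2 (0.355% of all loci called), 1 with the groups compared alone (0.19%), and 1 with identifiers from 150000 left out. With a library left out they numbered 0 to 2 (0.133% to 0.508% of all loci). The cause of these shifts was not tested. The numbers in the column names were not used as pairs in the main fit. Same-numbered libraries had a median correlation of deviations of -0.0248 (67 pairs, 26 over 0.1). Differently numbered libraries had a median of 0.0177 (185 pairs, 60 over 0.1). Of 24 libraries, 7 correlated best with their own number, and the share that random numbers would give was not worked out. With the number in the column name as a block, 29 neighbours were called in both knockouts (7.88% of all loci) and 1 between the knockouts (0.366%). In that fit 2 off loci were called among the other 6 groups (12.7% of all loci). Solyc11g011570 lost its call there, at an edgeR adjusted p of 0.05. In the other comparisons 0 members were called (0.366% to 2.07% of all loci). In the 28 settings refitted, all 30 called neighbours kept the direction of the mean of both knockouts, and 7 lost their call in at least 1, Solyc04g072020 in 9 of them. Depth limits the low side: a level of 0.2 CPM is 0.97 to 3.07 counts, depending on the library.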
